A study of Homo sapiens with 12 samples.

Results

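The mitosis and G2/M genes described here are 40 genes whose products carry cells from the end of DNA replication through chromosome segregation and cytokinesis. They were chosen by name, with no threshold on a difference, and were matched by symbol to the deposited gene tables. All 40 were found among the 18969 genes in the tables, all 40 reached 1 CPM (counts scaled to library size) in at least 4 of the 12 libraries, and all 40 were among the 12741 genes tested. RNA was sequenced from HCT116, a long-established line of human colorectal carcinoma cells, in 3 groups of 4 libraries. Cells of the UNC0642 recovery group were kept for 24 h without methionine in the presence of UNC0642 and then for 24 h in methionine-containing medium from which the inhibitor had been left out. UNC0642 is an inhibitor of the histone H3 lysine methyltransferases EHMT1 (GLP) and EHMT2 (G9a). Cells of the DMSO recovery group followed the same schedule with the vehicle DMSO in place of the inhibitor. The third group is labelled 0 h, and whether its cells were harvested before methionine was withdrawn or at the end of the withdrawal cannot be read from the labels. Every library comes from 1 cell line. Since the labels do not say that the 4 libraries of a group were separate cultures, the p-values cover only sample-to-sample spread, and that spread may be technical.

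Entry into mitosis is driven by CDK1 bound to B-type cyclins, after the CDC25 phosphatases have removed inhibitory phosphates from CDK1. Aurora and Polo-like kinases build the spindle, the spindle checkpoint holds back the anaphase-promoting complex until every kinetochore is attached, and kinesins, PRC1, anillin and ECT2 carry out anaphase and cytokinesis. In dividing cells the transcripts of these genes are low in G1 and peak in G2 and mitosis, under the DREAM complex (MuvB with an RB-family protein and E2F), MYBL2-MuvB and FOXM1. Their promoters are known for a pair of short elements, the CCAAT box, bound by NF-Y, and the cell cycle genes homology region (CHR), bound by the MuvB component LIN54.

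Both elements were looked for in the RefSeq promoters (build GRCh38.p14, 250 bases before to 50 after the annotated start), which held an entry for 33 of the 40 genes. The CHR was searched as TTTGAA and as TTCGAA, and the CCAAT box as CCAAT, on both strands, and each motif was counted regardless of overlap with another. The letters TTTGAA were found in 23 of the 33 promoters (69.7%), where 15.4% of all 27305 promoters held them. TTCGAA was found in 2 of the 33 (6.06%), against 1.45% of all promoters. CCAAT was found in 25 of the 33 (75.8%), against 35.7% of all promoters, and 20 of the 33 (60.6%) held both a CHR and a CCAAT box, against 6.58% of all promoters. The 250 bases before the start are given for the genes called between the UNC0642 and DMSO recovery groups, PLK1 and KIF4A, and for a gene that was lower and a gene that was higher after recovery, KIF23 and INCENP. All 4 lie on the plus strand and are written 5′ to 3′. Capitals mark the CHR (TTTGAA) and the CCAAT box (CCAAT, or ATTGG where it lies on the other strand).
PLK1 (chr16:23678639-23678888): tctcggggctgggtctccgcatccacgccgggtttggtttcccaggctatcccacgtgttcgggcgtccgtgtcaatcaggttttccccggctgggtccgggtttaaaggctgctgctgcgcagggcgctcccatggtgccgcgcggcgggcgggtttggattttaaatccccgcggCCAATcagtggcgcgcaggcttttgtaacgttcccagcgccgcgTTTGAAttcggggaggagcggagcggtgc
KIF4A (chrX:70289854-70290103): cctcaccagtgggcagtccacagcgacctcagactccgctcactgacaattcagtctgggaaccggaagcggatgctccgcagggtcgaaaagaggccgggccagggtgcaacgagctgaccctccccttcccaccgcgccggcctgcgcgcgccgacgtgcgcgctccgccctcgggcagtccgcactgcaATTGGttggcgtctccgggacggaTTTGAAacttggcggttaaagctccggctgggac
KIF23 (chr15:69414099-69414348): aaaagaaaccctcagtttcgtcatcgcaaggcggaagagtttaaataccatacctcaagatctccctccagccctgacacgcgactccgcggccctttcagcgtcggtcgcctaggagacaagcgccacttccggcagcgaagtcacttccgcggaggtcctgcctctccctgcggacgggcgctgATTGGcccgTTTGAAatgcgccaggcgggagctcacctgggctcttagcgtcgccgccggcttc
INCENP (chr11:62123761-62124010): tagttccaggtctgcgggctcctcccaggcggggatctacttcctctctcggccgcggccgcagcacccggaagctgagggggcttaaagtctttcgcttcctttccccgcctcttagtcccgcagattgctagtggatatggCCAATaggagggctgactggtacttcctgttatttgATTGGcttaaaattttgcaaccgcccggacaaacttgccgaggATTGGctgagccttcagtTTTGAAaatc
The first letter of the CHR lies 29 bases before the start in PLK1, 34 in KIF4A, 55 in KIF23 and 10 in INCENP. A CCAAT box lies upstream of it in each, at 73 bases before the start in PLK1, 58 in KIF4A and 64 in KIF23, and INCENP holds 3, at 107, 71 and 28 bases. These matches describe letters in a window and were not measured for binding.

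Expected counts summed to 17882244 to 19939440 per library after UNC0642 recovery, 16181076 to 20179829 after DMSO recovery and 14658103 to 18246707 at 0 h. The biological coefficient of variation over all genes tested was 3.44%. Marker levels in single libraries and marker sums are given here as CPM scaled by library totals only, without TMM factors. Of the epithelial markers checked, EPCAM (294 to 325 CPM), KRT8, KRT18, CDH1 and CDX2 were present in every library. KRT20 did not exceed 1.35 CPM, VIL1, CEACAM5 and LGALS4 stayed below 0.4 CPM and CDX1 had no count in any library. The epithelial markers summed to 4649 to 4799 CPM after UNC0642 recovery, 4610 to 4720 CPM after DMSO recovery and 3961 to 4039 CPM at 0 h. The 10 blood, fibroblast and endothelial markers summed to 29.1 to 36.8 CPM after UNC0642 recovery, 28.0 to 36.2 CPM after DMSO recovery and 20.9 to 42.7 CPM at 0 h, most of it COL1A1, and PTPRC had no count in 8 of the 12 libraries. Of these 10 markers 7 were tested. In DMSO recovery against 0 h, 2 were higher and 5 lower (adjusted p under 0.05 in the edgeR test given below), where 44.1% of all genes tested were called. In UNC0642 recovery against 0 h, 1 was higher and 2 lower, and between the recovery groups 0 were called. HBA1, at low counts, averaged 0.59 CPM after DMSO recovery and 1.55 CPM at 0 h on TMM factors. Of the 10 epithelial markers 6 were tested. Against 0 h, 4 were higher and 1 lower after DMSO recovery, and 5 higher and 1 lower after UNC0642 recovery. Of all genes tested, 44.1% and 47.0% were called. Between the recovery groups, where 4.58% were called, the 1 call was KRT20, at low counts. It averaged 1.13 CPM after UNC0642 and 0.38 CPM after DMSO recovery on TMM factors (log2 fold change 1.60 ± 0.36, adjusted p = 0.00545). The part of the markers of both lists in the results was not tested. The difference between a gene's length and the effective length estimated for it put 7 libraries at 120 to 127 bases and 5 at 101 to 106 bases, with libraries of both classes in every group.

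All 40 genes were expressed throughout, at 15.8 to 921 CPM, which corresponds to 246 to 18407 counts in a library. Levels of different genes are compared per length as the deposited FPKM (fragments scaled to gene length and library size), in the plot of the 40 genes ordered by level. CDC20, the activator of the anaphase-promoting complex, stood highest at 309 ± 5.6 FPKM after UNC0642 recovery, 294 ± 4.61 after DMSO recovery and 295 ± 7.84 at 0 h (mean ± SD, n = 4 each), at the 98.0th percentile of the genes tested. UBE2C, the ubiquitin-conjugating enzyme of the same complex, came next with 201 ± 6.11, 193 ± 1.68 and 211 ± 10.3 FPKM in the same order of groups. BUB3, PTTG1 (securin) and CCNB1 followed at 165 to 185 FPKM, and their order was not the same in every group. CDC25C, a phosphatase that activates CDK1, and CENPE, a kinetochore kinesin, were lowest, with 9.41 ± 0.579 and 7.42 ± 0.571 FPKM after UNC0642 recovery, 9.00 ± 0.803 and 7.32 ± 0.622 after DMSO recovery and 9.01 ± 0.268 and 7.05 ± 0.362 at 0 h. These 2 genes were the only members under the 69th percentile of the genes tested, at the 48.0th and the 41.9th.

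**Figure D1:**
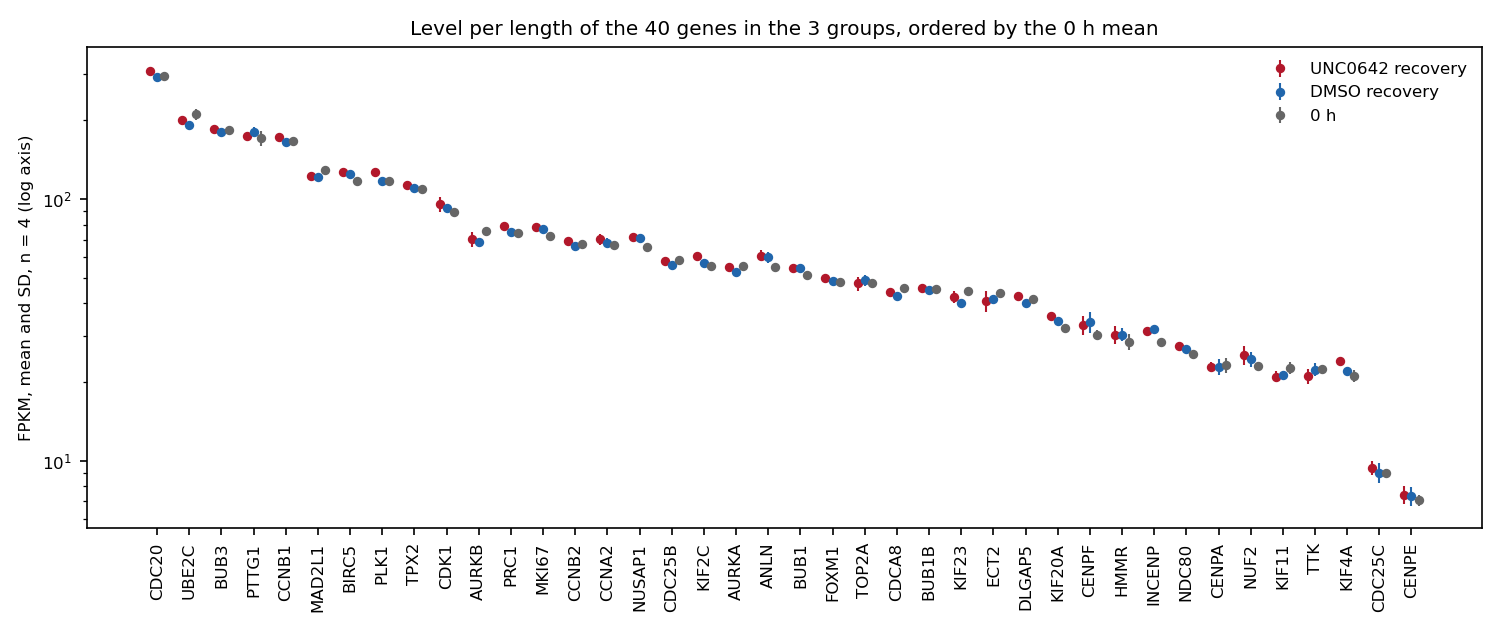
Level per length of the 40 genes as FPKM (log axis; mean and SD, n = 4 libraries) in UNC0642 recovery, DMSO recovery and 0 h, ordered by the 0 h mean. CDC20 lies near 300 FPKM and CENPE near 7 FPKM in all 3 groups, and the groups lie close together at each gene.

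Replicates were close. The median coefficient of variation of CPM over the 40 genes was 3.15% within UNC0642 recovery, 2.98% within DMSO recovery and 3.04% within 0 h. The medians over all genes tested, which were not matched to the 40 for expression level, were 5.48%, 5.26% and 5.56%. Over all 12 libraries the highest value of a gene was 1.05 (BUB1, a checkpoint kinase) to 1.31 (ECT2, an activator of RhoA) times its lowest, with a median of 1.15. Summed over the 40 genes, scaled CPM came to 7526 ± 61.5 after UNC0642 recovery, 7357 ± 68.3 after DMSO recovery and 7535 ± 63.2 at 0 h (mean ± SD, n = 4 each). The lowest UNC0642 library (7436) lay below the highest DMSO library (7459). In RNA from whole cultures a smaller share of cells in G2 and mitosis and less RNA per such cell cannot be told apart.

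The comparison of UNC0642 recovery with DMSO recovery asks what the inhibitor, present only while methionine was absent, left behind in the recovered cells. PLK1, the Polo-like kinase needed for centrosome maturation and mitotic exit, and KIF4A, a chromokinesin that shortens the central spindle, were called higher after UNC0642 recovery, by 7.49% and 8.74%. No member was called lower, and 38 did not pass the test. Of all genes tested, 4.58% were called (2.06% higher and 2.53% lower), so 2 of 40 members, 5%, is near the background. The threshold for a call was an adjusted p of 0.05 in edgeR's quasi-likelihood test, with Benjamini-Hochberg adjustment over all 12741 genes tested.

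PLK1 had 253, 254, 253 and 266 CPM in the UNC0642 recovery libraries, against 236, 240.2, 239.7 and 238 CPM in the DMSO recovery libraries. All 4 UNC0642 values lay above all 4 DMSO values. This is a log2 fold change of 0.10 ± 0.026 (adjusted p = 0.0134), which became 0.086 (adjusted p = 0.0721) without UNC0642 recovery replicate 4, the highest library. KIF4A had 102, 104, 103 and 107 CPM after UNC0642 recovery, against 97.8, 95.1, 93.9 and 95.8 CPM after DMSO recovery, again with no overlap. Here the log2 fold change was 0.12 ± 0.036 (adjusted p = 0.0444). This call was lost on leaving out any 1 of the 8 libraries, with log2 fold changes of 0.11 to 0.13 and adjusted p of 0.0505 to 0.131.

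Among the 38 members that were not called, the log2 fold changes ran from -0.087 (TTK, a checkpoint kinase) to 0.081 (CDC25C). CDC20 had the smallest adjusted p of these, with 475, 463, 485 and 482 CPM in UNC0642 recovery libraries and 451, 442, 458 and 457 CPM in DMSO recovery libraries, a log2 fold change of 0.075 ± 0.023 (adjusted p = 0.0602). Its groups did not overlap either. In all, 6 members did not overlap between the groups, each with the higher values after UNC0642 recovery: PLK1, CDC20, KIF20A, KIF2C, KIF4A and PRC1. That is 15% of the members, where 10.5% of all genes tested did not overlap. An unadjusted p under 0.05 was reached by 8 members (20%) and by 17.2% of all genes tested. The 95% intervals of all 40 members lay between -0.18 and 0.22 on the log2 scale. The median log2 fold change over the 40 genes was 0.036, with 30 positive and 10 negative values, beside a median of -0.0012 over all genes tested.

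By role, the median log2 fold change between UNC0642 and DMSO recovery was 0.063 for the 10 kinesins and spindle proteins, 0.057 for the 6 cyclin, CDK and CDC25 genes and 0.043 for the 6 Aurora, Polo and passenger-complex genes. It was 0.018 for the 8 checkpoint and anaphase genes, 0.013 for the 5 centromere and kinetochore genes, 0.030 for the group of FOXM1, TOP2A and MKI67, and -0.0061 for the cytokinesis genes ECT2 and ANLN. KIF4A was the only kinesin or spindle gene called and PLK1 the only kinase or passenger gene called, and the other roles had no call. CDK1, the kinase that triggers mitosis, averaged 169 ± 10.5 CPM after UNC0642 recovery and 164 ± 2.43 CPM after DMSO recovery (SD, n = 4 each), a log2 fold change of 0.041 ± 0.034 (adjusted p = 0.578). MKI67, the proliferation marker Ki-67 that coats mitotic chromosomes, averaged 902 ± 16.3 CPM after UNC0642 recovery and 883 ± 18.4 CPM after DMSO recovery, a log2 fold change of 0.030 ± 0.021 (adjusted p = 0.490). FOXM1, a transcription factor of G2/M genes, averaged 168 ± 5.81 CPM after UNC0642 recovery and 164 ± 3.17 CPM after DMSO recovery, a log2 fold change of 0.033 ± 0.031 (adjusted p = 0.652). None of these 3 genes passed the test.

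**Figure D2:**
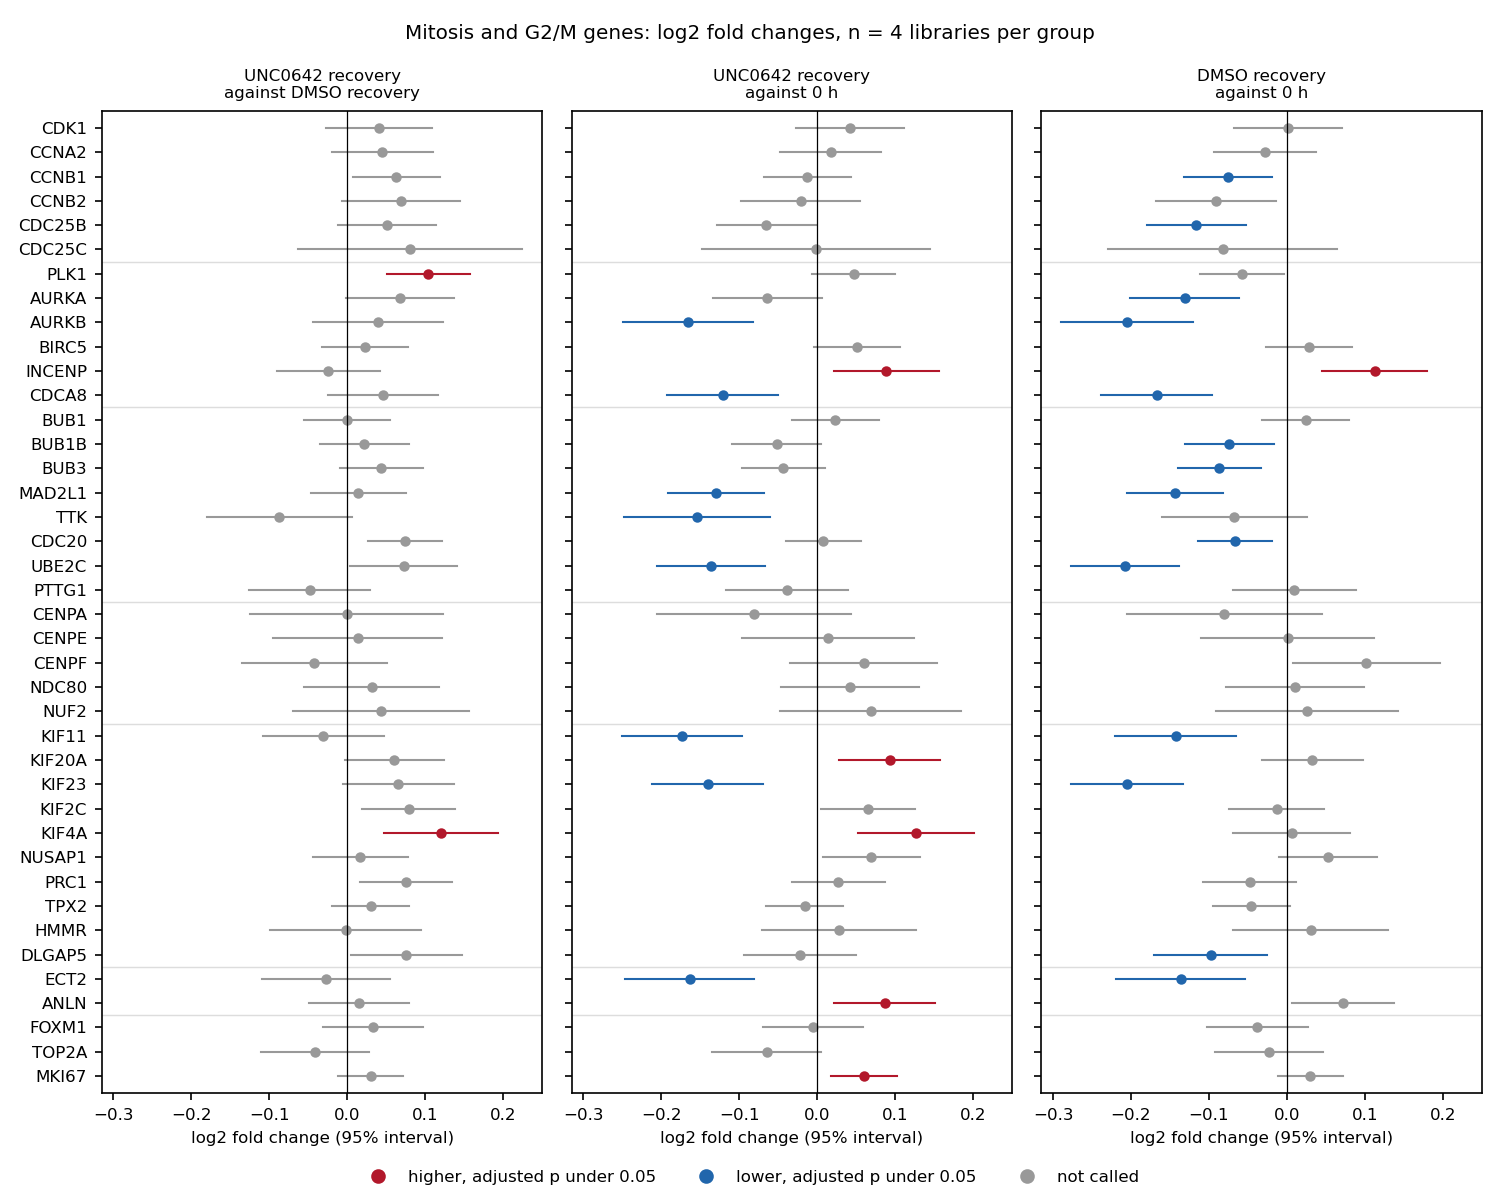
Log2 fold changes of the 40 genes (points) with 95% intervals (lines) for UNC0642 recovery against DMSO recovery, UNC0642 recovery against 0 h and DMSO recovery against 0 h, n = 4 libraries per group; grey lines part the roles. Called genes number 2 higher in the left panel, 5 higher and 8 lower in the middle panel (15 higher and 3 lower with library totals only) and 1 higher and 14 lower in the right panel (8 higher and 5 lower with library totals only).

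The comparisons with 0 h ask how the recovered cells differ from that time point. After UNC0642 recovery 5 members were called higher and 8 lower than at 0 h, and after DMSO recovery 1 was called higher and 14 lower; with library totals only, in place of TMM factors, these became 15 higher and 3 lower, and 8 higher and 5 lower. The 13 members called after UNC0642 recovery are 32.5% of the 40, beside 47.0% of all genes tested (23.4% higher and 23.6% lower), and the 15 called after DMSO recovery are 37.5%, beside 44.1% (22.4% higher and 21.7% lower). The changes were small: the largest were those of KIF11, which fell by 11.3% after UNC0642 recovery, and UBE2C, which fell by 13.4% after DMSO recovery. A log2 fold change of 0.2 or more in size was seen in 0 of the 40 genes after UNC0642 recovery and in 3 after DMSO recovery, where 38.5% and 36.5% of all genes tested reached it. All genes tested include less precisely measured genes, with a median standard error of 0.060 beside 0.034 for the members in each comparison with 0 h. The 2 sets were not matched for expression level. In both comparisons the share of members called was below the background. Lower calls after DMSO recovery made up 35% of the members. The comparisons share the 4 libraries of 0 h, so the values of each are given side by side, and the difference between the recovery groups is the one tested above.

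The median log2 fold change of the 40 genes was -0.0032 for UNC0642 recovery against 0 h, beside 0.0063 over all genes tested, and -0.047 for DMSO recovery against 0 h, beside 0.0069; with library totals only, the medians of the 40 genes were 0.056 and 0.0067, and those of all genes tested 0.066 and 0.060. With TMM factors, groups did not overlap for 13 members after UNC0642 recovery (4 higher and 9 lower) and for 13 after DMSO recovery (1 higher and 12 lower). That is 32.5% of the members in each case, beside 40.2% and 38.3% of all genes tested. Over all genes tested, higher calls made up 49.8% of calls for UNC0642 recovery and 50.8% for DMSO recovery with TMM factors, and 67.5% in both comparisons with library totals only.

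Of the cyclin, CDK and CDC25 genes, 0 of 6 were called in either direction after UNC0642 recovery, and 0 were called higher and 2 lower after DMSO recovery. Of all genes tested, 47.0% and 44.1% were called. With library totals only, CDK1 and CCNA2 were called higher after UNC0642 recovery and there was no call after DMSO recovery. CDC25B, a phosphatase that activates CDK1 at the centrosome, had 203, 199.9, 199.8 and 206 CPM in UNC0642 recovery libraries, 194, 191, 207 and 189.6 CPM in DMSO recovery libraries and 208, 215, 222 and 202 CPM in 0 h libraries. The groups overlapped. Against 0 h the log2 fold change was -0.065 ± 0.031 (adjusted p = 0.0863) for UNC0642 recovery and -0.12 ± 0.031 (adjusted p = 0.00293) for DMSO recovery. CCNB1, cyclin B1, had 345, 328, 325 and 347 CPM after UNC0642 recovery, 328, 315, 327 and 317 CPM after DMSO recovery and 355, 331, 333 and 337 CPM at 0 h. All 4 DMSO recovery values lay below all 4 of 0 h, with a log2 fold change of -0.075 ± 0.028 (adjusted p = 0.0260), beside -0.012 ± 0.028 (adjusted p = 0.742) for UNC0642 recovery. The call after DMSO recovery was lost without DMSO recovery replicate 2 or 4 or without 0 h replicate 1, where the log2 fold change was -0.067, -0.068 and -0.053, and with a correction for gene length, at -0.057 (adjusted p = 0.0618). CDK1 itself averaged 169 ± 10.5 CPM after UNC0642 recovery, 164 ± 2.43 CPM after DMSO recovery and 164 ± 2.44 CPM at 0 h (SD, n = 4 each), and was not called in either comparison.

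The mitotic kinases and the chromosomal passenger complex, in which AURKB works with INCENP, BIRC5 (survivin) and CDCA8 (borealin), held both directions. After UNC0642 recovery 1 of the 6 genes was called higher and 2 lower, and after DMSO recovery 1 was called higher and 3 lower. Of all genes tested, 47.0% and 44.1% were called. With library totals only the counts of this role were 3 higher and 1 lower, and 2 higher and 2 lower. AURKB had 78.5, 73.5, 84.0 and 74.9 CPM in UNC0642 recovery libraries, 72.8, 75.3, 78.7 and 75.9 CPM in DMSO recovery libraries and 89.1, 89.2, 85.2 and 85.1 CPM in 0 h libraries. Every recovery library lay below every 0 h library. The log2 fold change against 0 h was -0.17 ± 0.041 (adjusted p = 0.00127) for UNC0642 recovery and -0.21 ± 0.041 (adjusted p = 0.000134) for DMSO recovery. CDCA8 had 92.9, 96.0, 95.8 and 95.3 CPM after UNC0642 recovery, 95.8, 92.5, 91.1 and 88.8 CPM after DMSO recovery and 101, 104, 102 and 107 CPM at 0 h, again with all recovery values below those of 0 h. CDCA8 thus had a log2 fold change of -0.12 ± 0.035 (adjusted p = 0.00476) for UNC0642 recovery and -0.17 ± 0.035 (adjusted p = 0.000217) for DMSO recovery.

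INCENP, the scaffold of the same complex, was the only member called higher after DMSO recovery. It had 119, 128, 125 and 127 CPM in UNC0642 recovery libraries, 129, 126, 127 and 125 CPM in DMSO recovery libraries and 115, 115, 122 and 118 CPM in 0 h libraries. The DMSO recovery values lay above those of 0 h, and the lowest UNC0642 value, that of replicate 1, lay within the range of 0 h. INCENP had a log2 fold change against 0 h of 0.089 ± 0.033 (adjusted p = 0.0269) for UNC0642 recovery and 0.11 ± 0.033 (adjusted p = 0.00574) for DMSO recovery, and both were called higher with TMM factors, RLE factors and library totals only. Both calls were lost with a correction for gene length, at 0.057 (adjusted p = 0.146) for UNC0642 recovery and 0.076 (adjusted p = 0.0551) for DMSO recovery. The call after UNC0642 recovery was lost without UNC0642 recovery replicate 2, 3 or 4 or without 0 h replicate 1 or 2, with log2 fold changes of 0.077 to 0.086. BIRC5 averaged 315 ± 6.93 CPM after UNC0642 recovery, 309.6 ± 6.82 CPM after DMSO recovery and 304 ± 10.4 CPM at 0 h (SD, n = 4 each), and neither difference passed the test. AURKA, the centrosomal Aurora kinase, had 126, 118, 120.3 and 117 CPM after UNC0642 recovery, 115, 112, 112 and 119 CPM after DMSO recovery and 123, 128, 122 and 130.4 CPM at 0 h. Its DMSO recovery values lay below those of 0 h, and its UNC0642 values overlapped them. For AURKA the log2 fold change was -0.064 ± 0.034 (adjusted p = 0.128) for UNC0642 recovery and -0.13 ± 0.035 (adjusted p = 0.00231) for DMSO recovery.

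**Figure D3:**
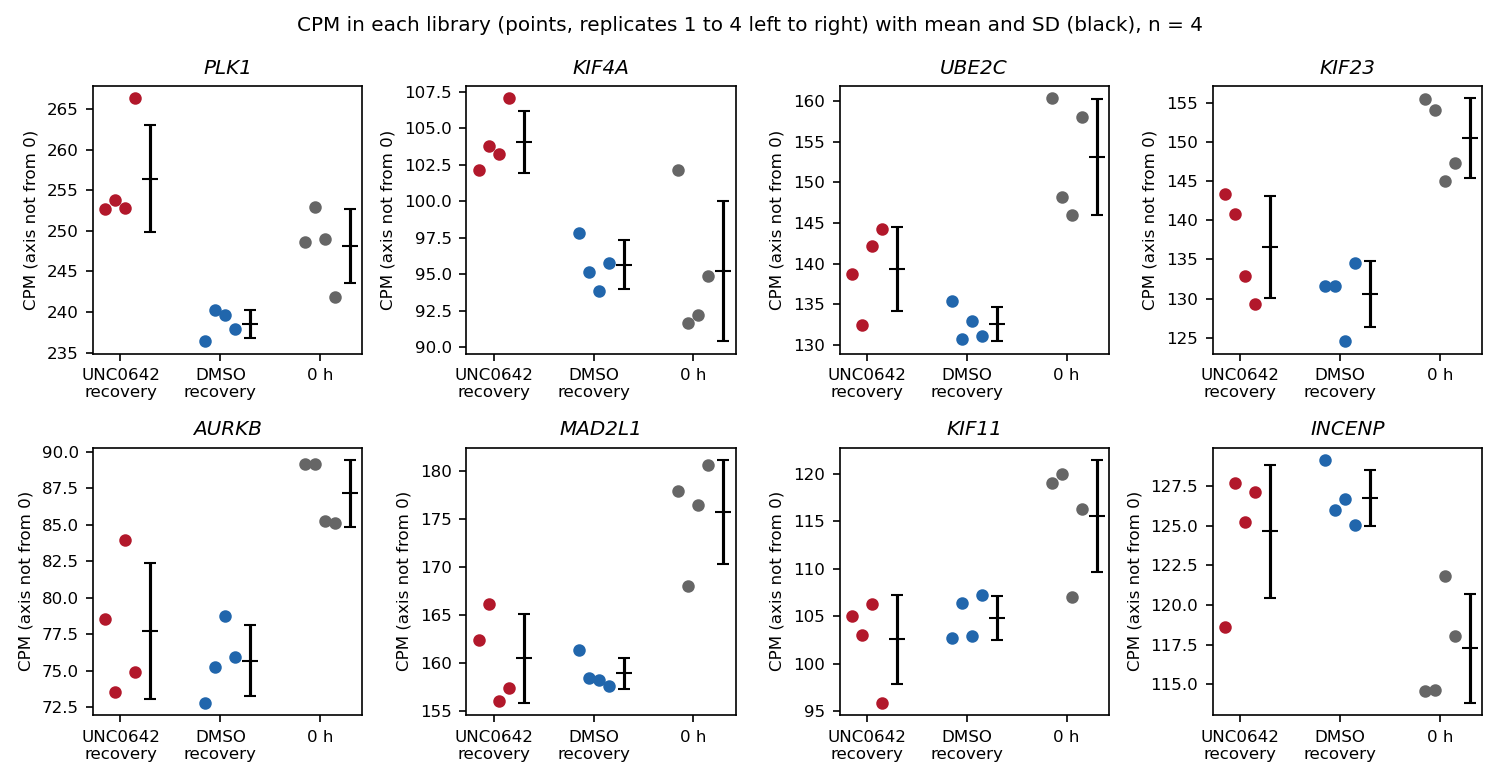
CPM of PLK1, KIF4A, UBE2C, KIF23, AURKB, MAD2L1, KIF11 and INCENP in each library (points, replicates 1 to 4 from left to right within UNC0642 recovery, DMSO recovery and 0 h), with mean and SD in black (n = 4); the vertical axes do not start at 0. On the TMM factors used here, the PLK1 and KIF4A points of UNC0642 recovery lie above those of DMSO recovery. On the same factors, all recovery points of UBE2C, KIF23, AURKB and MAD2L1 lie below those of 0 h.

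The spindle checkpoint and anaphase genes held 3 lower calls of 8 after UNC0642 recovery and 5 of 8 after DMSO recovery, with no higher call. Of all genes tested, 23.6% and 21.7% were called lower in these comparisons. With library totals only there were 2 higher and 0 lower after UNC0642 recovery, and 1 higher and 2 lower after DMSO recovery. UBE2C had 139, 132, 142 and 144 CPM in UNC0642 recovery libraries, 135, 131, 133 and 131 CPM in DMSO recovery libraries and 160.3, 148, 146 and 158 CPM in 0 h libraries. No recovery library reached the lowest 0 h library. Against 0 h the log2 fold change of UBE2C was -0.14 ± 0.034 (adjusted p = 0.00132) for UNC0642 recovery and -0.21 ± 0.034 (adjusted p = 7.29e-06) for DMSO recovery, the lowest of the 40 genes after DMSO recovery. With a correction for gene length these were -0.042 (adjusted p = 0.263), no longer called, and -0.12 (adjusted p = 0.00160). MAD2L1, the checkpoint protein that inhibits CDC20, had 162, 166, 156 and 157 CPM after UNC0642 recovery, 161, 158, 158 and 158 CPM after DMSO recovery and 178, 168, 176 and 181 CPM at 0 h, with no overlap between either recovery group and 0 h. MAD2L1 had a log2 fold change of -0.13 ± 0.030 (adjusted p = 0.000635) for UNC0642 recovery and -0.14 ± 0.030 (adjusted p = 0.000219) for DMSO recovery. TTK, the kinase that starts checkpoint signalling, had 59.5, 64.3, 60.8 and 56.0 CPM after UNC0642 recovery, 63.8, 64.5, 59.1 and 67.9 CPM after DMSO recovery and 68.7, 65.3, 67.5 and 66.3 CPM at 0 h. Only its UNC0642 values lay wholly below those of 0 h, with log2 fold changes of -0.15 ± 0.046 (adjusted p = 0.00624) for UNC0642 recovery and -0.067 ± 0.046 (adjusted p = 0.244) for DMSO recovery.

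The other lower calls of this role after DMSO recovery were BUB3, BUB1B and CDC20, parts of the checkpoint complex and its target, with log2 fold changes against 0 h of -0.087 ± 0.026 (adjusted p = 0.00758), -0.074 ± 0.028 (adjusted p = 0.0331) and -0.066 ± 0.024 (adjusted p = 0.0210). For UNC0642 recovery the same genes had -0.043 ± 0.026 (adjusted p = 0.181), -0.052 ± 0.028 (adjusted p = 0.133) and 0.0082 ± 0.023 (adjusted p = 0.798). The BUB1B call was lost without DMSO recovery replicate 1 or 2 or without 0 h replicate 2, 3 or 4, with log2 fold changes of -0.076 to -0.058. The CDC20 call was lost without DMSO recovery replicate 2 or without 0 h replicate 1 or 2, with log2 fold changes of -0.060 to -0.056, and with a correction for gene length, at -0.032 (adjusted p = 0.242). BUB1 and PTTG1 were not called: BUB1 averaged 182 ± 2.87 CPM after UNC0642 recovery, 182 ± 1.07 CPM after DMSO recovery and 179 ± 3.00 CPM at 0 h (SD, n = 4 each).

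None of the 5 centromere and kinetochore genes (CENPA, CENPE, CENPF, NDC80 and NUF2) was called against 0 h after either recovery. Of all genes tested, 47.0% were called after UNC0642 recovery and 44.1% after DMSO recovery. With library totals only CENPF was called higher after both. The median log2 fold change of the 5 genes was 0.042 for UNC0642 recovery and 0.011 for DMSO recovery. CENPA, the histone H3 variant of centromeres, averaged 29.4 ± 1.55 CPM after UNC0642 recovery, 29.4 ± 1.98 CPM after DMSO recovery and 31.1 ± 2.16 CPM at 0 h (SD, n = 4 each). NDC80, which binds microtubules at the outer kinetochore, averaged 55.6 ± 1.17 CPM after UNC0642 recovery, 54.4 ± 2.11 CPM after DMSO recovery and 54.0 ± 1.34 CPM at 0 h. CENPF, a large protein of the outer kinetochore, spread widely within the recovery groups, with 339, 338, 354 and 291 CPM after UNC0642 recovery, 317, 372, 312 and 361 CPM after DMSO recovery and 332, 299, 315 and 323 CPM at 0 h. Its log2 fold change of 0.10 ± 0.046 (adjusted p = 0.0725) for DMSO recovery did not pass the test.

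Kinesins and spindle proteins went both ways against 0 h, with 2 of 10 called higher and 2 lower after UNC0642 recovery and 0 higher and 3 lower after DMSO recovery. Of all genes tested, 47.0% and 44.1% were called. With library totals only the counts of this role were 5 higher and 1 lower, and 2 higher and 1 lower. KIF11 (Eg5), the kinesin that pushes spindle poles apart, had 105, 103, 106 and 95.9 CPM in UNC0642 recovery libraries, 103, 106, 103 and 107 CPM in DMSO recovery libraries and 119, 119.9, 107 and 116 CPM in 0 h libraries. UNC0642 values did not overlap those of 0 h, and DMSO values overlapped at 0 h replicate 3. For KIF11 the log2 fold change against 0 h was -0.17 ± 0.038 (adjusted p = 0.000340) for UNC0642 recovery and -0.14 ± 0.038 (adjusted p = 0.00264) for DMSO recovery. KIF23 (MKLP1), a kinesin of the central spindle, had 143, 141, 133 and 129 CPM after UNC0642 recovery, 132, 132, 125 and 134 CPM after DMSO recovery and 156, 154, 145 and 147 CPM at 0 h, with every recovery library below every 0 h library. Its log2 fold change was -0.14 ± 0.035 (adjusted p = 0.00135) for UNC0642 recovery and -0.21 ± 0.035 (adjusted p = 1.47e-05) for DMSO recovery.

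KIF4A had 102, 91.7, 92.2 and 94.9 CPM at 0 h, and its UNC0642 recovery values given above lay just above the highest of these, with a log2 fold change of 0.13 ± 0.036 (adjusted p = 0.00450) for UNC0642 recovery and 0.0065 ± 0.037 (adjusted p = 0.904) for DMSO recovery. KIF20A (MKLP2), which carries the passenger complex to the central spindle, had 118, 118, 118 and 119 CPM after UNC0642 recovery, 113, 116, 111 and 115 CPM after DMSO recovery and 109.5, 114, 108 and 112 CPM at 0 h. The UNC0642 values were the tightest of the 3 groups and lay above the other two. Its log2 fold change was 0.093 ± 0.032 (adjusted p = 0.0159) for UNC0642 recovery, 0.081 without 0 h replicate 3 (adjusted p = 0.0563), and 0.033 ± 0.032 (adjusted p = 0.427) for DMSO recovery. The call after UNC0642 recovery was also lost with a correction for gene length, at 0.072 (adjusted p = 0.0550). DLGAP5 (HURP), which stabilises spindle microtubules, was called lower after DMSO recovery, with a log2 fold change of -0.10 ± 0.036 (adjusted p = 0.0252), beside -0.022 ± 0.035 (adjusted p = 0.639) for UNC0642 recovery. That call was lost without DMSO recovery replicate 3 or without 0 h replicate 1 or 3, with log2 fold changes of -0.085 to -0.074. PLK1 stood at 249, 253, 249 and 242 CPM at 0 h and was not called against it, with log2 fold changes of 0.047 ± 0.026 (adjusted p = 0.143) for UNC0642 recovery and -0.057 ± 0.026 (adjusted p = 0.0771) for DMSO recovery. KIF2C, NUSAP1, PRC1, TPX2 and HMMR were not called against 0 h in either comparison.

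The cytokinesis genes differed from each other. ECT2, the exchange factor that activates RhoA at the division plane, had 157, 163, 157 and 133 CPM in UNC0642 recovery libraries, 152, 159, 148 and 162 CPM in DMSO recovery libraries and 173, 166, 169.9 and 174 CPM in 0 h libraries. All recovery values lay below those of 0 h. The log2 fold change against 0 h was -0.16 ± 0.041 (adjusted p = 0.00131) for UNC0642 recovery and -0.14 ± 0.041 (adjusted p = 0.00684) for DMSO recovery. ANLN (anillin), which organises the contractile ring, averaged 279 ± 12.3 CPM after UNC0642 recovery, 276 ± 13.6 CPM after DMSO recovery and 263 ± 3.98 CPM at 0 h (SD, n = 4 each). It was called higher after UNC0642 recovery, with a log2 fold change of 0.087 ± 0.032 (adjusted p = 0.0240), beside 0.072 ± 0.032 (adjusted p = 0.0659) for DMSO recovery. The ANLN call was lost without UNC0642 recovery replicate 2 or 3 or without 0 h replicate 4, with log2 fold changes of 0.067 to 0.079, and with a correction for gene length, at 0.047 (adjusted p = 0.182).

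FOXM1 and TOP2A, the topoisomerase that untangles sister chromatids, were not called against 0 h. FOXM1 averaged 168 ± 5.81 CPM after UNC0642 recovery, 164 ± 3.17 CPM after DMSO recovery and 169 ± 6.29 CPM at 0 h, and TOP2A averaged 265 ± 14.6, 272 ± 12.5 and 277 ± 9.46 CPM in the same order of groups (SD, n = 4 each). MKI67, the member with the highest CPM, had 908, 890.2, 921 and 886 CPM in UNC0642 recovery libraries, 873, 893, 862 and 903 CPM in DMSO recovery libraries and 864, 864, 863 and 867 CPM in 0 h libraries. The 0 h libraries lay close together, below all UNC0642 values. Its log2 fold change was 0.060 ± 0.021 (adjusted p = 0.0160) for UNC0642 recovery and 0.030 ± 0.021 (adjusted p = 0.246) for DMSO recovery. With a correction for gene length, MKI67, the longest of the 40 genes, was at -0.019 (adjusted p = 0.460) for UNC0642 recovery and at -0.082 (adjusted p = 0.00100) for DMSO recovery, so the direction of this gene depends on that correction. Without UNC0642 recovery replicate 3 its log2 fold change against 0 h was 0.050 (adjusted p = 0.0761).

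Which of the small differences from 0 h are called depends on how libraries are scaled. Mean TMM factors were 1.015 for UNC0642 recovery, 1.011 for DMSO recovery and 0.974 for 0 h. Statements on the overlap of groups in CPM rest on these factors, and overlap was not counted without them. With library totals only, CDCA8, MAD2L1, TTK, UBE2C and KIF23 were not called lower after UNC0642 recovery. AURKB, KIF11 and ECT2 were called lower after UNC0642 recovery, and AURKB, CDCA8, MAD2L1, UBE2C and KIF23 after DMSO recovery, with TMM factors, RLE factors and library totals only. INCENP, KIF20A, KIF4A, ANLN and MKI67 were called higher after UNC0642 recovery, and INCENP after DMSO recovery, under the same 3 scalings. PLK1 and KIF4A were higher in UNC0642 than in DMSO recovery under the same 3 scalings, joined by CDC20 with library totals only. Summed over the 40 genes, CPM scaled by library totals only came to 7637 ± 88.9 after UNC0642 recovery, 7436 ± 74.3 after DMSO recovery and 7338 ± 56.0 at 0 h (mean ± SD, n = 4 each), so 0 h was level with UNC0642 recovery with TMM factors and the lowest of the groups without them. Gene length moved with the fold changes as well. Across the 40 genes, Spearman's rho of length with the log2 fold change was 0.24 for UNC0642 recovery against 0 h and 0.37 for DMSO recovery against 0 h, beside 0.16 and 0.21 over all genes tested. These are descriptions across genes, which share libraries and are not independent replicates. After UNC0642 recovery 0 of the 20 members shorter than the median of 2941 bases were called higher and 4 lower, and 5 of the 20 longer ones were called higher and 4 lower. After DMSO recovery 0 of the 20 shorter members were called higher and 8 lower, and 1 of the 20 longer ones higher and 6 lower. Of all genes tested, of any length, 23.4% were called higher and 23.6% lower after UNC0642 recovery. After DMSO recovery these shares were 22.4% and 21.7%. With a correction for gene length, 2 members were called higher (KIF4A and NUSAP1) and 10 lower after UNC0642 recovery, and 1 higher (PTTG1) and 15 lower after DMSO recovery. PTTG1, which was not called without the correction, was then at 0.11 (adjusted p = 0.0194). With the same correction 47.0% of all genes tested were called after UNC0642 recovery (2839 higher and 3154 lower). After DMSO recovery 44.5% were called (2630 higher and 3045 lower).

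**Figure D4:**
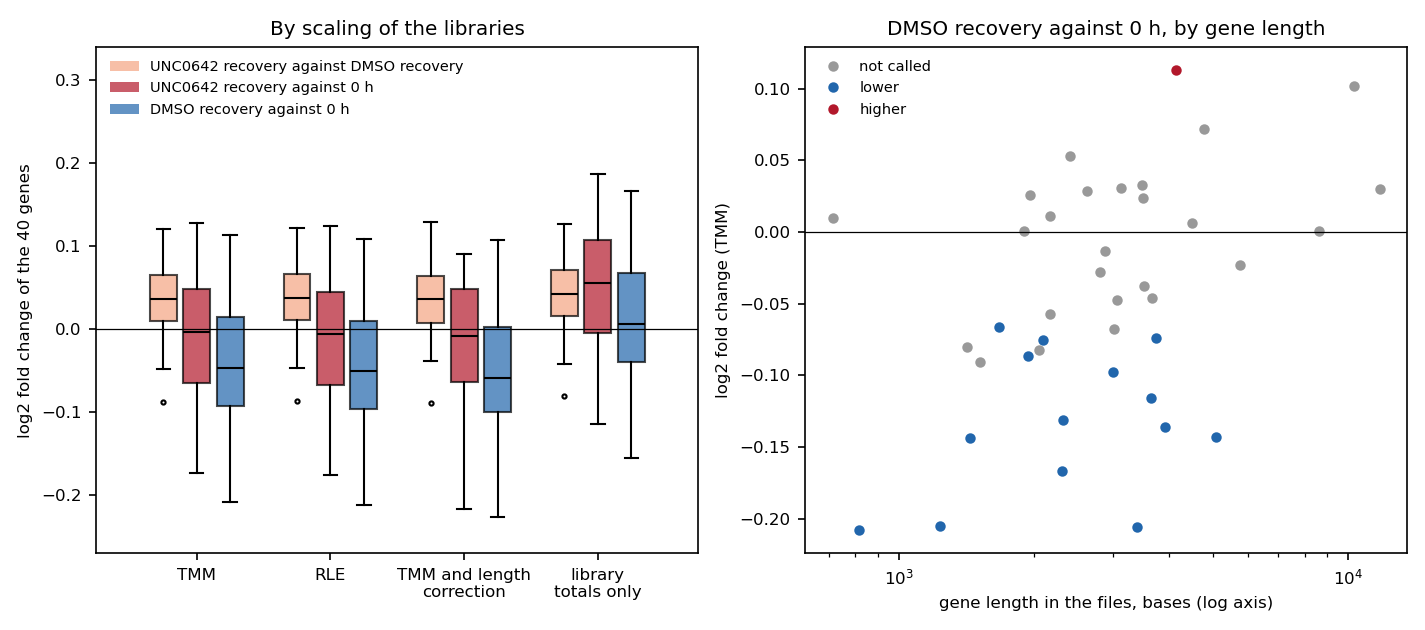
Left: log2 fold changes of the 40 genes under 4 scalings, for UNC0642 recovery against DMSO recovery, UNC0642 recovery against 0 h and DMSO recovery against 0 h (box, quartiles; line, median; whiskers, 1.5 interquartile ranges; points beyond them). Right: DMSO recovery against 0 h by gene length in bases (log axis), 1 point per gene. The medians against 0 h are -0.0032 and -0.047 with TMM factors and 0.056 and 0.0067 with library totals only.

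Other cell cycle genes, from lists that overlap none of the 40, were counted in the same fit. The counts of each list stand beside these shares of all genes tested. Between the recovery groups 4.58% were called. Against 0 h, 23.4% were called higher and 23.6% lower after UNC0642 recovery, and 22.4% higher and 21.7% lower after DMSO recovery. Of 18 genes of the anaphase-promoting complex and its regulators, 1 was called higher and 0 lower in UNC0642 against DMSO recovery (median log2 fold change 0.0041), 1 higher and 7 lower in UNC0642 recovery against 0 h (median -0.067) and 1 higher and 8 lower in DMSO recovery against 0 h (median -0.078). With library totals only, the comparisons with 0 h gave 2 higher and 5 lower, and 1 higher and 4 lower. UBE2S, which extends ubiquitin chains on targets of the complex, was higher in UNC0642 than in DMSO recovery, with a log2 fold change of 0.12 ± 0.025 (adjusted p = 0.00282), and lower in DMSO recovery than at 0 h, with -0.14 ± 0.025 (adjusted p = 3.37e-05). FBXO5 (EMI1), an inhibitor of the complex, was lower than at 0 h after UNC0642 recovery, with -0.19 ± 0.045 (adjusted p = 0.000583), and after DMSO recovery, with -0.19 ± 0.045 (adjusted p = 0.000637).

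Condensin and cohesin genes, 20 in number, had 0 higher and 1 lower in UNC0642 against DMSO recovery (median -0.0094), 1 higher and 9 lower in UNC0642 recovery against 0 h (median -0.061) and 1 higher and 9 lower in DMSO recovery against 0 h (median -0.068). With library totals only, the comparisons with 0 h gave 3 higher and 6 lower, and 3 higher and 5 lower. The single call between the recovery groups was STAG2, a cohesin subunit, at -0.15 ± 0.046 (adjusted p = 0.0496); it was not called with RLE factors or library totals only. Of 27 other kinetochore genes, 1 was higher and 0 lower in UNC0642 against DMSO recovery (median 0.023), 0 higher and 8 lower in UNC0642 recovery against 0 h (median -0.067) and 2 higher and 9 lower in DMSO recovery against 0 h (median -0.085). These last comparisons gave 3 higher and 4 lower, and 3 higher and 6 lower, with library totals only. HJURP, the chaperone that loads CENPA at centromeres, was higher in UNC0642 than in DMSO recovery, with 0.14 ± 0.041 (adjusted p = 0.0323), and lower in DMSO recovery than at 0 h, with -0.28 ± 0.041 (adjusted p = 9.39e-07). SKA2, of a complex that holds kinetochores to microtubules, was lower than at 0 h after UNC0642 recovery, with -0.34 ± 0.039 (adjusted p = 8.14e-09), and after DMSO recovery, with -0.35 ± 0.039 (adjusted p = 4.99e-09).

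Of 31 other mitotic regulators tested, 3 were called higher and 0 lower in UNC0642 against DMSO recovery (median 0.024), which is 9.68% beside the background of 4.58%. They were TUBA1C, an alpha-tubulin, at 0.14 ± 0.021 (adjusted p = 2.51e-05), TUBB4B, a beta-tubulin listed in the files as TUBB2C, at 0.11 ± 0.021 (adjusted p = 0.000655), and TROAP, a microtubule-associated protein, at 0.16 ± 0.043 (adjusted p = 0.0229). Tubulin genes are near-identical copies, so how reads were split between them is uncertain. Against 0 h, 4 were higher and 12 lower after UNC0642 recovery (median -0.081), and 4 higher and 17 lower after DMSO recovery (median -0.088); with library totals only these were 8 higher and 5 lower, and 5 higher and 9 lower. PLK4, the kinase of centriole duplication, was lower than at 0 h after UNC0642 recovery, with -0.32 ± 0.046 (adjusted p = 6.53e-07), and after DMSO recovery, with -0.29 ± 0.046 (adjusted p = 5.49e-06). NEK2, a centrosomal kinase, was higher after UNC0642 recovery, with 0.30 ± 0.047 (adjusted p = 2.27e-06), and CDCA3, which targets WEE1 for destruction, was lower after DMSO recovery, with -0.41 ± 0.056 (adjusted p = 3.42e-07).

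Of the 18 genes of the MuvB, MYBL2, RB and E2F families that act on G2/M promoters, 0 were called higher and 1 lower in UNC0642 against DMSO recovery (median -0.012), 4 higher and 5 lower in UNC0642 recovery against 0 h (median 0.057) and 5 higher and 4 lower in DMSO recovery against 0 h (median 0.019). The call between the recovery groups was RBBP4, a histone-binding subunit of MuvB, at -0.085 ± 0.024 (adjusted p = 0.0351), and it was not called with library totals only. Against 0 h, library totals only gave 7 higher and 3 lower after UNC0642 recovery, and 5 higher and 2 lower after DMSO recovery. RBL2 (p130), the RB-family protein of the repressive DREAM complex, was higher than at 0 h by 0.68 ± 0.062 (adjusted p = 8.04e-11) on the log2 scale after UNC0642 recovery and by 0.71 ± 0.062 (adjusted p = 3.10e-11) after DMSO recovery. Among 14 CDK inhibitors and G1 cyclins tested, 1 was called higher and 0 lower in UNC0642 against DMSO recovery (median -0.0057), 4 higher and 3 lower in UNC0642 recovery against 0 h (median -0.045) and 5 higher and 3 lower in DMSO recovery against 0 h (median -0.020); with library totals only the comparisons with 0 h gave 5 higher and 2 lower (median 0.015), and 5 higher and 1 lower (median 0.033). CDKN1A (p21), an inhibitor of cyclin-dependent kinases, was higher than at 0 h by 0.87 ± 0.032 (adjusted p = 5.13e-21) after UNC0642 recovery and by 0.95 ± 0.032 (adjusted p = 6.35e-22) after DMSO recovery. CCND1, cyclin D1, was the gene called between the recovery groups, at 0.072 ± 0.018 (adjusted p = 0.0144). The fold changes of RBL2 and CDKN1A are larger than that of any of the 40 mitosis and G2/M genes. Both lists held calls in both directions against 0 h. E2F4, of the same list as RBL2, was lower than at 0 h after UNC0642 recovery, at -0.19 ± 0.030 (adjusted p = 2.69e-06). After DMSO recovery E2F4 was lower as well, at -0.20 ± 0.030 (adjusted p = 1.65e-06).

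The 46 G1/S and DNA replication genes had 0 higher and 2 lower calls in UNC0642 against DMSO recovery (median -0.033, with 11 positive and 35 negative values), 6 higher and 19 lower in UNC0642 recovery against 0 h (median -0.065) and 7 higher and 14 lower in DMSO recovery against 0 h (median -0.039). For this list the comparisons with 0 h gave 8 higher and 11 lower, and 12 higher and 9 lower, with library totals only. MCM4 and MCM7, subunits of the replicative helicase, were the lower calls between the recovery groups, at -0.086 ± 0.024 (adjusted p = 0.0323) and -0.081 ± 0.025 (adjusted p = 0.0496); with RLE factors or library totals only, 1 gene of the list was called. On TMM factors the list summed to 7969 ± 57.5 CPM after UNC0642 recovery, 8144 ± 92.5 CPM after DMSO recovery and 8380 ± 87.0 CPM at 0 h (mean ± SD, n = 4 each). Its sum was not taken with library totals only. With those, its median log2 fold change against 0 h was -0.0055 for UNC0642 recovery and 0.015 for DMSO recovery, so the fall from 0 h depends on the scaling. Between the recovery groups the median log2 fold change was thus positive for the mitosis and G2/M genes and negative for the G1/S genes with TMM factors, RLE factors and library totals only; the difference between the lists was not tested.

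Promoters that hold the CHR letters belonged to 24 of the 33 genes with an entry. Of these 24, 2 were called higher and 0 lower in UNC0642 against DMSO recovery (median log2 fold change 0.026), 4 higher and 5 lower in UNC0642 recovery against 0 h (median 0.025) and 1 higher and 8 lower in DMSO recovery against 0 h (median -0.035). Of the 9 without them, 0 were called in UNC0642 against DMSO recovery (median 0.051), 1 higher and 1 lower in UNC0642 recovery against 0 h (median -0.0013) and 0 higher and 3 lower in DMSO recovery against 0 h (median -0.028). These medians against 0 h are on TMM factors. Of all genes tested, 4.58% were called in UNC0642 against DMSO recovery, 47.0% in UNC0642 recovery against 0 h and 44.1% in DMSO recovery against 0 h. The promoters printed above, all with a CHR and a CCAAT box, belong to genes that were higher (PLK1, KIF4A and INCENP) and lower (KIF23) in the comparisons named.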

How the data were processed

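The authors deposited 1 gene table per library, made with RSEM 1.2.4 and Bowtie on the human build hg18, per the submitters' processing notes. The use of strand in counting is not given in the sources used here, and reads of antisense or overlapping genes may therefore be mixed. The expected counts, which RSEM estimates by sharing out reads that fit several genes, were used as deposited and rounded to whole numbers. The FPKM values, scaled by the authors to length and library total, were used as deposited for levels and for an alternative. They follow library totals and so can order groups differently from CPM on TMM factors.

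Differences were tested in R 4.3.3 with edgeR 4.0.16 (TMM factors, filterByExpr, 1 quasi-likelihood fit over all 12 libraries, 2-sided, Benjamini-Hochberg adjustment over 12741 genes, called at an adjusted p under 0.05). Intervals are 95%. CPM are on TMM factors unless stated. Alternatives used limma 3.58.1, DESeq2 1.42.0, other scalings and filters, a gene length correction, the difference between full and effective length (longer or shorter libraries) as covariate or subset, and leaving out each library.

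The members and lists were chosen with earlier results of these data known. Members were named with values in every library where they were called between the recovery groups or were among the 10 called members of smallest p in a comparison with 0 h. CCNB1, CDC20, CENPF and MKI67 are given with values in every library outside this rule. Up to 3 called genes of smallest p could be named from each other list. Of these lists, KIF22 had no matching symbol. Promoter sequences are from RefSeq (GRCh38.p14), a different build from that of the counts.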

Additional observations from a re-analysis of the deposited data

Results flagged for a closer look

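In 6 of 120 sets of 4 libraries (40 genes in 3 groups) 1 library stood apart from the other 3 by Dixon's test at 95%, where chance gives about 1 in 20. PLK1 was at 266 CPM in UNC0642 recovery replicate 4, with the other libraries of that group at 253 to 254 CPM, and without that library PLK1 was not called. PRC1, which bundles microtubules of the central spindle, was also high in that library, at 236 CPM against 225 to 226 CPM. BUB1 was at 186 CPM in UNC0642 recovery replicate 2, against 180 to 181 CPM in the others. NDC80 was at 57.4 CPM in UNC0642 recovery replicate 1, against 55.0 to 55.1 CPM. KIF2C, a kinesin that takes microtubules apart, was low in the same library, at 158 CPM against 166 to 168 CPM. CENPE was at 69.3 CPM in DMSO recovery replicate 4, against 58.2 to 59.4 CPM. Of the 6, 5 lie in the UNC0642 recovery group. UNC0642 recovery replicate 4 held the lowest value among the 4 libraries of its group for 13 members and the highest for 12. Over all 12 libraries these numbers ran from 3 to 16 and from 3 to 14, so this library did not stand apart in them.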

How the results depend on the processing

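Leaving out each library in turn gave 0 to 2 called members for UNC0642 against DMSO recovery (median log2 fold change 0.027 to 0.046), 10 to 15 for UNC0642 recovery against 0 h (-0.013 to 0.0022) and 12 to 17 for DMSO recovery against 0 h (-0.055 to -0.039). Of the called members, 0 of 2, 9 of 13 and 11 of 15 were called in every such fit. Over all genes tested these fits called 3.14% to 4.82%, 43.0% to 44.5% and 40.2% to 41.5%, beside 4.58%, 47.0% and 44.1% with all libraries. Between the recovery groups, a fit on the 7 libraries with a long difference between full and effective length gave 0 calls, where 2.27% of all genes tested were called. There log2(FPKM + 1) and log2(FPKM + 0.1) in limma gave 1 call each, where 3.08% and 2.94% of all genes tested were called. For UNC0642 recovery against 0 h the long libraries gave 8 calls and the 5 short ones 7. Of all genes tested, 35.1% and 29.8% were called in these fits. The short libraries include only 1 of DMSO recovery, whose spread was assumed to be that of the other groups. Counts of calls in comparisons with DMSO recovery are therefore not given for the short libraries. The median for UNC0642 recovery against 0 h became 0.056 with library totals only, 0.053 with log2(FPKM + 1) and 0.056 with log2(FPKM + 0.1), and that for DMSO recovery against 0 h became 0.0067, 0.0113 and 0.0114. MKI67 against 0 h turned to -0.019 (UNC0642 recovery) and -0.082 (DMSO recovery) with the gene length correction, and to -0.019 and -0.083 with the replicate block as well. The causes were not tested.

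A fit with the replicate number as a block called 3, 13 and 15 members, in the order above, and 4.97%, 47.1% and 44.5% of all genes tested. Deviations of same-numbered libraries correlated at -0.153 to 0.065, and 2 of 24 checks found a library closest to its own number. These checks showed no pairing by number but cannot exclude it, because the longer and shorter libraries do not follow the replicate numbers. The labels do not state a pairing. Over 25 alternatives per comparison, AURKB and UBE2C stayed called for DMSO recovery against 0 h in all of them, CDCA8, MAD2L1 and KIF23 in all but the short libraries, and in the other comparisons no member did, with or without that subset. Directions turned for members called under neither setting in 52, 71 and 63 cases. The median standard error of the 40 log2 fold changes between the recovery groups was 0.034. A difference had to be well above that to be called at this depth with 4 libraries a group. CDC20, at 0.075 ± 0.023, was not called (adjusted p = 0.0602), and the smaller of the 2 called log2 fold changes was that of PLK1, at 0.10 ± 0.026.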
